A study of Mus musculus with 8 samples.

Results

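The genes of the interferon response and of class I antigen presentation were followed in mouse embryonic stem (ES) cells across 4 clones and 2 passages. The list held 40 gene symbols and was chosen by the differences that these genes showed between libraries of the same data, so that the levels of the clones given below are a description and carry no test. Of the 40 symbols, 39 had a row in a table of 23337 names. Ifi27 had no row of that symbol. Rows stood under Ifi27l1 and Ifi27l2a, both of which RefSeq links to the name Ifi27, and neither was counted as a member.

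The study asked whether the expansion of ES cells in culture changes gene expression beyond telomere length. PolyA+ RNA was sequenced from ES cell clones 6, 20, 30 and 36, at an early passage (6) and a later one (16), where each passage moves the growing cells to new dishes. This gave 8 libraries, with n = 4 clones per passage and 1 library per clone and passage. All libraries were labelled as wild-type cells of strain 129S1 that came from blastocysts and were grown in DMEM with leukaemia inhibitory factor (LIF), so that neither passage was a treated group and no culture given interferon was included. The methods of the study also name C57BL6 for cultured ES cell clones, without saying which cells were sequenced.

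Libraries held between 21394069 and 34295561 reads on genes. Values are normalized counts, that is the authors' read counts divided by 1 size factor per library, and every value came back to a whole read when multiplied by that factor. In this table, where a name is the start of another that adds a digit, counts of the group can be displaced between lines. Such groups hold 5080 names (21.8%), with 2 to 220 lines out of order per library. None of the 39 members was among them. All 39 rows stood in order between their neighbours in 8 of 8 libraries, but outside such groups the names alone set this order. The order is therefore no separate check of the members' counts. In bulk RNA, fewer cells that express a gene and less of its RNA per cell cannot be told apart.

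Interferons are secreted proteins that cells make when sensors such as MDA5 or RIG-I detect foreign or misplaced nucleic acid. They bind receptors that signal through JAK kinases to transcription factors, which enter the nucleus and switch on the interferon-stimulated genes. Many of these genes encode proteins that block viruses, and others load peptides onto class I major histocompatibility molecules for display to T cells. Pluripotent cells are known for a weak interferon response compared with differentiated cells.

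The 39 members were high in clone 30 at both passages, and at passage 6 most were lowest in clone 20. All 39 members were at their highest in the passage 6 library of clone 30, and 24 were at their lowest in the passage 6 library of clone 20. At passage 16 clone 6 was the lowest clone for 20 members and clone 20 for 16. Clone 30 was still the highest clone at passage 16 for 36 members, while clone 6 was the highest for 2 members (Dhx58 and Irf1) and clone 36 for 1 (B2m). Clone 30 was thus the highest clone at both passages for 36 of 39 members, where 14.4% of 12283 names did so.

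The summed level of the members was 19783, 11021, 77361 and 20527 normalized counts in clones 6, 20, 30 and 36 at passage 6. At passage 16 the sum was 10699, 12167, 41019 and 21893 in the same order. The passage 6 library of clone 30 alone held the highest sum, and its passage 16 library was the next.

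The distance between the highest and the lowest library was over 4-fold for 33 of 39 members, where 4.5% of the 12283 names passed that distance. It was over 16-fold for 19 members, where 0.545% of names did. These shares describe the choice of the list, since the list was drawn from genes that differ between libraries. Just inside the 4-fold distance stood Stat2 with 4.54-fold and Dhx58 with 4.78-fold, and just outside it Irf9 with 3.99-fold and Tap1 with 3.90-fold.

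**Figure D1:**
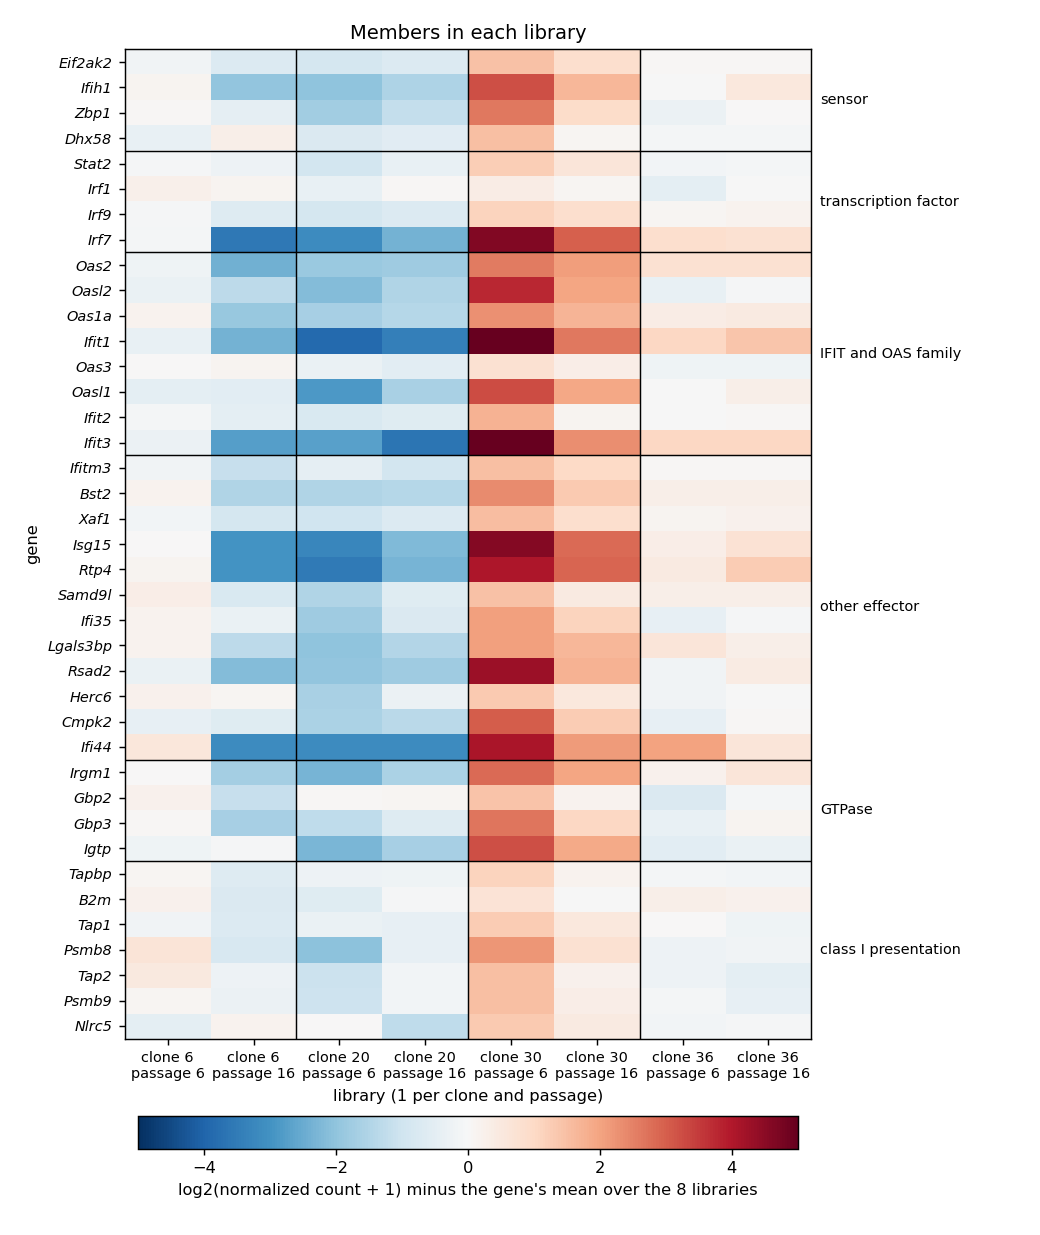
Level of each of the 39 members (lines of the heat map, grouped by role and ordered by mean level) in the 8 libraries (columns, passage 6 and passage 16 side by side for each clone), as log2(normalized count + 1) minus the mean of that gene over the 8 libraries; the colour scale is held at 5 in either direction. The passage 6 library of clone 30 is the highest for all 39 members, and the passage 6 library of clone 20 is the lowest for 24.

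The promoters of the members were read next. The list did not use sequence, but its members were named as genes of the interferon response. The shares below therefore describe that choice of genes and not their levels in these libraries. RefSeq windows of build GRCm38.p6 around the start site, mostly upstream of it, were found for 33 of the 39 members. The letters of the interferon-stimulated response element, a site bound by a complex that holds STAT2 and IRF9, were searched on both strands as GAAA, any 2 bases, and GAAA again. They were present in 16 of the 33 members (48.5%), while 3.99% of all 27025 symbols with a window and 3.44% of all 32851 windows held them. The letters of the gamma-activated site, known from genes that interferon gamma induces, were searched as TTC, any 3 bases, and GAA, and were present in 9 of 33 members (27.3%) against 9.55% of symbols and 8.3% of windows. Both letter patterns can overlap each other. A match describes letters and was not tested as a binding site.

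Both patterns were found in 5 members (Bst2, Eif2ak2, Ifitm3, Igtp and Oas1a), and neither in 13. By role, the first pattern was present in 4 of 4 GTPase genes, 2 of 2 sensors, 4 of 7 IFIT and OAS genes, 4 of 11 other effectors, 1 of 4 transcription factor genes and 1 of 5 class I presentation genes. Irf7, whose level differed the most between libraries among the transcription factor genes, had neither pattern in its window, as had Tap1 and Tapbp. Dhx58, Nlrc5, Oas2, Rtp4, Tap2 and Zbp1 had no window under their symbols.

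The 6 most abundant members that held the first pattern are shown to let the site be seen in its surroundings, on the strand of the gene and with the pattern or its reverse complement in capitals. Ifitm3 (chr7:141010715-141010782, minus strand) has the pattern at 2 places just after the start site, and Bst2 (chr8:71537547-71537642, minus strand) and Irgm1 (chr11:48871395-48871490, minus strand) each have 2 overlapping copies before it. Eif2ak2 (chr17:78882543-78882594, minus strand), Stat2 (chr10:128270248-128270325, plus strand) and Gbp2 (chr3:142620564-142620653, plus strand) each have 1 copy. Tapbp (chr17:33919228-33919507, plus strand) and Xaf1 (chr11:72301379-72301658, plus strand) are the most abundant members without it, and are shown with no capitals.
Ifitm3: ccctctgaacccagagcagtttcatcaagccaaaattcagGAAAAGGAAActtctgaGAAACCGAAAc
Bst2: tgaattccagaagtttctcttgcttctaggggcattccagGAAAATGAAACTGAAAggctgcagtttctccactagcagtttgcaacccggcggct
Irgm1: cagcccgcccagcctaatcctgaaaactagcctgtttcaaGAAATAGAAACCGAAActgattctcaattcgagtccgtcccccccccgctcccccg
Eif2ak2: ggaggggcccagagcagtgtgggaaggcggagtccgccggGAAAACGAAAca
Stat2: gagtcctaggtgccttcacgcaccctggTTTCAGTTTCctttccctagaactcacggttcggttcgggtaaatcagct
Gbp2: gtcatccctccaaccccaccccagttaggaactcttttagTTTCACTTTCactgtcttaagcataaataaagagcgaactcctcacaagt
Tapbp: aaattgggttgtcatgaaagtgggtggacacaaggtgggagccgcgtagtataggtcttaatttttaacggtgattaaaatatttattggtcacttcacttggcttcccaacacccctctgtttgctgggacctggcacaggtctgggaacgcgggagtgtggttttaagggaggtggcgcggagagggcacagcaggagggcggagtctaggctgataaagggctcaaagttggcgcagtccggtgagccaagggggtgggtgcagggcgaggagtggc
Xaf1: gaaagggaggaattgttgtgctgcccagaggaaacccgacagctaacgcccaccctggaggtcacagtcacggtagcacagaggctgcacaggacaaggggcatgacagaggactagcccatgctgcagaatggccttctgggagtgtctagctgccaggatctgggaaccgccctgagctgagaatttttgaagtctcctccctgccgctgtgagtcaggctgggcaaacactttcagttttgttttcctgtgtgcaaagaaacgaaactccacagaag

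Among the sensors, which detect nucleic acids of viruses, the double-stranded RNA receptor MDA5 (Ifih1) differed the most between libraries. Ifih1 was at 68.1, 14.4, 573 and 60.4 normalized counts in clones 6, 20, 30 and 36 at passage 6, and at 14.9, 20.1, 193 and 89.2 at passage 16. The highest library was 39.8-fold above the lowest. Zbp1, a sensor of left-handed nucleic acids that can start cell death, had 74.8, 20.7, 449 and 56.9 at passage 6 and 51.7, 30.6, 134 and 72.8 at passage 16. For both genes clone 30 stood above the other 3 clones at either passage, and its passage 16 level was below its passage 6 level.

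Eif2ak2 encodes PKR, the kinase that stops translation when it binds double-stranded RNA, and was the most abundant sensor. Its level was 1579, 963, 4844 and 1825 normalized counts at passage 6 and 1101, 1101, 3145 and 1835 at passage 16, a distance of 5.03-fold between the extremes. The PKR transcript was therefore present in all 8 libraries, including those where other members were nearly absent. Dhx58, which encodes the RIG-I-like protein LGP2, was at 37.4, 28.8, 138 and 45.0 at passage 6 and at 58.8, 32.5, 51.3 and 45.1 at passage 16, where clone 6 was above clone 30. An antisense gene overlaps exons of Dhx58, and the libraries were stranded, while the use of strand in the counting is not given in the sources used here.

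The transcription factor genes split into Irf7 on one side and Stat2, Irf9 and Irf1 on the other. Irf7, which drives the late and large production of interferon alpha, was at 58.8, 6.31, 1576 and 115 normalized counts in clones 6, 20, 30 and 36 at passage 6. At passage 16 it was at 4.39, 11.5, 504 and 108. This was a distance of 359-fold between the passage 6 library of clone 30 and the passage 16 library of clone 6. Irf7 lies at chr7:141262706-141266481 (GRCm38, minus strand), and its exons overlap those of Phrf1 on the other strand.

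Stat2 and Irf9, whose proteins are part of the complex that binds the response element, were well expressed everywhere. Stat2 was at 1293, 697, 3169 and 1203 at passage 6 and at 1124, 1028, 2017 and 1241 at passage 16. Irf9 was at 685, 384, 1530 and 749, and then at 455, 443, 1250 and 801. Clone 30 was the highest clone for Stat2 and Irf9 at either passage. Exons of Rnf31 on the same strand overlap those of Irf9. Irf1, a factor induced mainly by interferon gamma, was at 933, 606, 1025 and 564 and then at 874, 821, 853 and 780, so that its extremes were 1.82-fold apart, the smallest distance of any member.

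The IFIT and OAS families had the widest distances between libraries, both by the median gene and by the mean of the role. IFIT proteins bind foreign RNA that lacks the host's cap, and OAS proteins make the short oligoadenylates that activate RNase L. Ifit1 was at 30.7, 1.80, 1292 and 82.9 normalized counts in clones 6, 20, 30 and 36 at passage 6, and at 7.02, 2.87, 252 and 107 at passage 16. Ifit3 was at 9.35, 0.901, 423 and 24.9, and then at 0.877, 0, 61.9 and 24.6. In clone 20 these levels rest on very few reads, with 2 and 3 reads of Ifit1 and 1 and 0 reads of Ifit3 at passages 6 and 16. A count of 0 allows up to 3 reads, or 2.87 normalized counts in that library, and counting error is the only error this covers. Ifit1, Ifit2 and Ifit3 lie in 1 cluster on chromosome 19. How reads that fit near-identical copies were counted is not given in the sources used here.

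Oas2 was the most abundant of the family by normalized counts, with 417, 132, 2922 and 814 at passage 6 and 90.3, 141, 2032 and 819 at passage 16. Oasl2, an OAS-like gene, was at 214, 57.7, 3614 and 206 and then at 106, 92.8, 1053 and 259. Oas1a was at 414, 116, 1780 and 482 and then at 97.4, 137, 1212 and 509. In clone 6 Oas1a and Oas2 were over 4-fold lower at passage 16 than at passage 6, while in clone 36 both passages were nearly at the same level. The other 3 genes of the family (Oas3, Oasl1 and Ifit2) had extremes between 2.44-fold (Oas3) and 81.6-fold (Oasl1) apart.

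Of the 12 other effector genes with a row, Ifitm3 and Bst2 were the most abundant. Ifitm3 keeps viruses from fusing with endosomes and is also expressed in germ cells. It was at 3033, 2512, 9748 and 3520 normalized counts in clones 6, 20, 30 and 36 at passage 6 and at 1532, 1819, 6830 and 3529 at passage 16. Bst2 encodes tetherin, which holds budding viruses at the cell surface. It was at 2507, 786, 11467 and 2743 at passage 6 and at 782, 826, 5543 and 2725 at passage 16, so that clone 6 was at the level of clone 20 at passage 16 while clone 36 had nearly the same level at both passages.

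Isg15, a ubiquitin-like protein that is joined to other proteins, was at 114, 10.8, 2707 and 143 and then at 13.2, 23.9, 809 and 185. Its extremes were 7.84 apart on the log2 scale, the largest distance of an effector gene whose lowest library held more than 3 reads. Rtp4, a chaperone of receptors that is induced by interferon, was at 115, 8.11, 1751 and 145 and then at 12.3, 20.1, 802 and 251, a distance of 216-fold. Xaf1, which promotes cell death, had a narrower distance of 5.83-fold, with 1220, 659, 3840 and 1459 at passage 6 and 717, 830, 2351 and 1557 at passage 16. Isg15, Rtp4 and Xaf1 nonetheless had the same order of clones at passage 6, with clone 30 first and clone 36, clone 6 and clone 20 behind it.

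The remaining 7 effector genes were Samd9l, Ifi35, Lgals3bp, Rsad2, Herc6, Cmpk2 and Ifi44. Rsad2 encodes viperin, which makes a chain-terminating nucleotide, and Cmpk2 beside it on chromosome 12 encodes a nucleotide kinase. Their extremes were 97.6-fold and 25.9-fold apart. The extremes of Herc6, the mouse ligase that joins Isg15 to its targets, were 7.84-fold apart. Ifi44 had no reads in the passage 6 library of clone 20 or in the passage 16 libraries of clones 6 and 20, against 147 normalized counts in clone 30 at passage 6 and 37.7 at passage 16. Of the rows linked to Ifi27, Ifi27l1 was at 1192, 68.5, 1818 and 1489 at passage 6 and at 86.0, 145, 2924 and 1622 at passage 16. Ifi27l2a was at 38.8, 8.11, 44.3 and 43.8 and then at 3.51, 9.57, 63.8 and 42.0. In both rows clone 30 was the highest clone but, unlike in the 39 members, higher at passage 16 than at passage 6.

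The GTPase genes encode proteins that gather on the membranes around intracellular microbes, and are mainly targets of interferon gamma. Irgm1 was at 1074, 213, 7655 and 1245 normalized counts in clones 6, 20, 30 and 36 at passage 6 and at 329, 354, 4209 and 1632 at passage 16. Igtp was at 118, 27.9, 1286 and 94.8 and then at 133, 43.0, 510 and 109. The extremes of Irgm1 and Igtp were 5.16 and 5.48 apart on the log2 scale, with clone 30 the highest throughout. The exons of Igtp overlap those of Irgm2, and how reads in the overlap were counted is not given in the sources used here.

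Gbp3 and Gbp2 are guanylate-binding proteins. Gbp3 was at 327, 130, 2048 and 244 at passage 6 and at 101, 205, 655 and 353 at passage 16. Gbp2 was at 1001, 909, 2353 and 520 and then at 388, 914, 975 and 802. In Gbp2, unlike the other GTPase genes, clone 20 stood just below clone 30 at passage 16 and was not the lowest clone at either passage.

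The class I presentation genes were expressed in all libraries. The distance between the extremes of a gene had a median of 2.53 on the log2 scale in this role, beside 2.08 for the transcription factor genes and 5.48 for the IFIT and OAS genes. B2m, the invariant light chain of class I molecules, was at 891, 510, 1219 and 940 normalized counts at passage 6 and at 466, 746, 753 and 884 at passage 16. Its extremes were 2.62-fold apart, and clone 36 was the highest clone at passage 16. Tapbp, which encodes tapasin and holds class I molecules at the peptide transporter, was the most abundant of the role with 1762, 1395, 3561 and 1530 and then 1062, 1411, 1889 and 1508. Exons of Zbtb22 on the same strand overlap those of Tapbp.

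Tap1 and Tap2 form the transporter that carries peptides into the endoplasmic reticulum. Tap1 was at 366, 326, 1006 and 420 at passage 6 and at 258, 316, 595 and 357 at passage 16. Tap2 was at 132, 43.2, 264 and 77.0 and then at 78.1, 84.2, 109 and 65.6. Psmb8, a subunit of the immunoproteasome that cuts proteins into peptides suited to class I molecules, had the widest distance of the role. Its level was 140, 20.7, 411 and 74.6 at passage 6 and 50.9, 67.0, 152 and 77.9 at passage 16, with 19.9-fold between the extremes. Psmb9, Tap1, Psmb8 and Tap2 follow each other on chromosome 17 (GRCm38), between bases 34181987 and 34216321. The exons of Psmb9 and Tap1 overlap on opposite strands, and how reads in the overlap were counted is likewise not given. The remaining 2 genes were Psmb9 and Nlrc5, the gene of the factor that switches on class I genes, with extremes 5.95-fold and 6.32-fold apart.

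Set per kilobase of annotated exon, the mean level over the 8 libraries was highest for Ifitm3 with 6000 normalized counts per kilobase and for Bst2 with 3790. B2m followed with 932 and Isg15 with 662. Nlrc5 with 3.51 and Ifi44 with 4.96 were the lowest members on this scale. Exon lengths came from the GENCODE M21 annotation, while the authors counted on the UCSC annotation.

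The roles shared the order of the clones at passage 6 at its ends and differed in the distance. The mean of log2(normalized count + 1) over the 39 members was 7.57, 6.00, 9.95 and 7.66 in clones 6, 20, 30 and 36 at passage 6, and it was 6.44, 6.42, 8.76 and 7.78 at passage 16. The highest and the lowest library were thus 3.95 apart on the log2 scale. This distance was 5.09 for the IFIT and OAS genes, 4.64 for the other effectors, 3.99 for the GTPase genes, 3.54 for the sensors, 3.17 for the transcription factor genes and 2.12 for the class I presentation genes. Clone 30 was first and clone 20 last at passage 6 in each of the 6 roles. The passage 6 library of clone 30 held 48.3% of the normalized counts of the IFIT and OAS genes over all 8 libraries, and 25.0% of those of the class I presentation genes. Without clone 30 the distance over all members was 1.79.

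**Figure D2:**
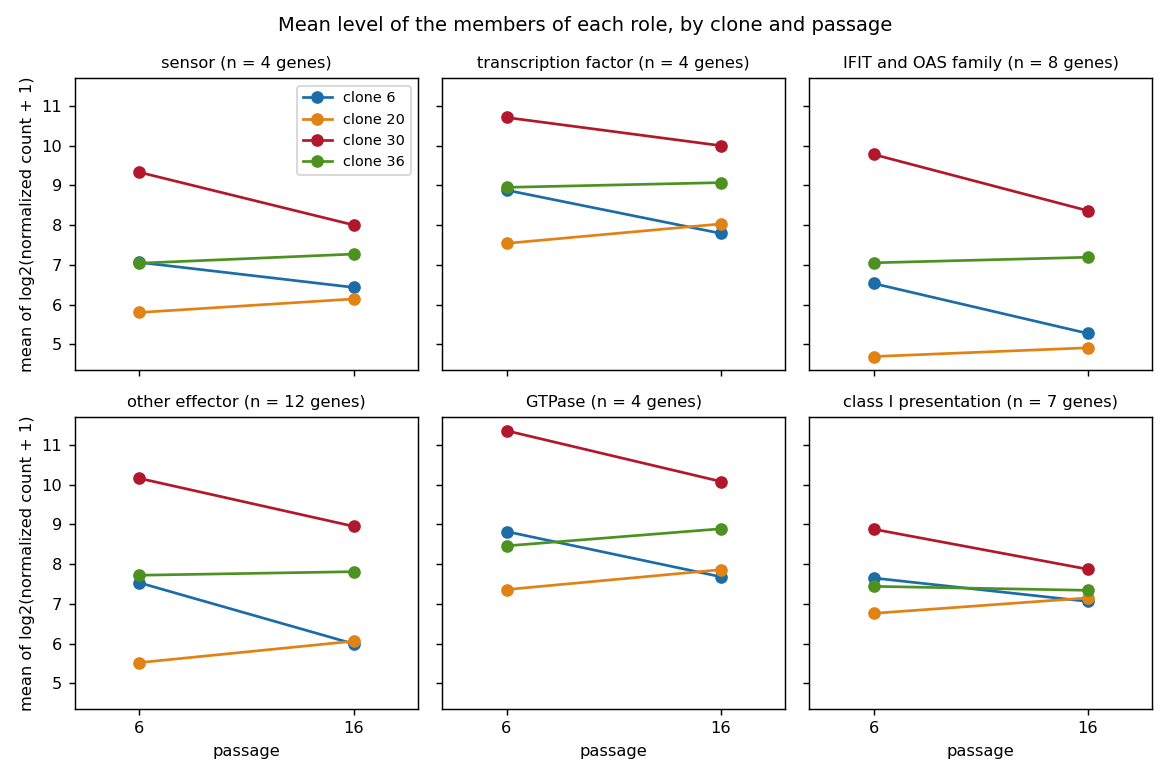
Mean of log2(normalized count + 1) over the members of each role (vertical axis) at passage 6 and passage 16 (horizontal axis), with 1 line for each clone and 1 library at each point. Clone 30 lies above the other clones in every panel, the lines of clones 6 and 30 go down, and the distance between the clones is 5.09 for the IFIT and OAS genes against 2.12 for the class I presentation genes.

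At passage 16 most members were lower than at passage 6 in clones 30 and 6, and most were higher in clone 20 and, by little, in clone 36. These changes compare 1 library with 1 library within a clone and have no replicate of their own. In clone 30 all 39 members were lower at passage 16, 22 of them by over 2-fold, where 1.43% of the 12283 names were. Their median change was -1.13 on the log2 scale, and the widest were Ifit3 and Rsad2. All 39 had their highest level in the passage 6 library of clone 30, so that the fall in this clone follows from that. The list was chosen by the differences between libraries, and the shares of names given here and below describe that choice. In clone 6, 35 members were lower and 18 were lower by over 2-fold, against 3.71% of names, with a median change of -0.93. Over the 12283 names, deviations from the passage means correlated less between both libraries of clone 6 (r = 0.096) than between its passage 6 library and the passage 16 library of clone 36 (r = 0.28). The passage 16 library of clone 6 was closest to its own clone, with r of -0.084, 0.013 and -0.0095 for clones 20, 30 and 36 at passage 6. The identity of the cell line was not tested.

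In clone 20, 33 members were higher at passage 16, 5 were lower and 1 (Ifi44) had no reads at either passage. Of these, 6 were higher by over 2-fold, where 3.3% of names were, and 1 was lower by over 2-fold, where 1.27% were. In clone 36, 27 members were higher and 12 lower, and 1 (Ifi44) was lower by over 2-fold, where 0.643% of names were. The median change of the members was 0.45 in clone 20 and 0.09 in clone 36. The median change of all names was between -0.008 and 0.003 in the 4 clones. In clone 36 the members thus changed little in the median, while single members went from -1.41 (Ifi44) to 0.79 (Rtp4). The difference between clones in this change was not tested, since each clone gives 1 value.

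**Figure D3:**
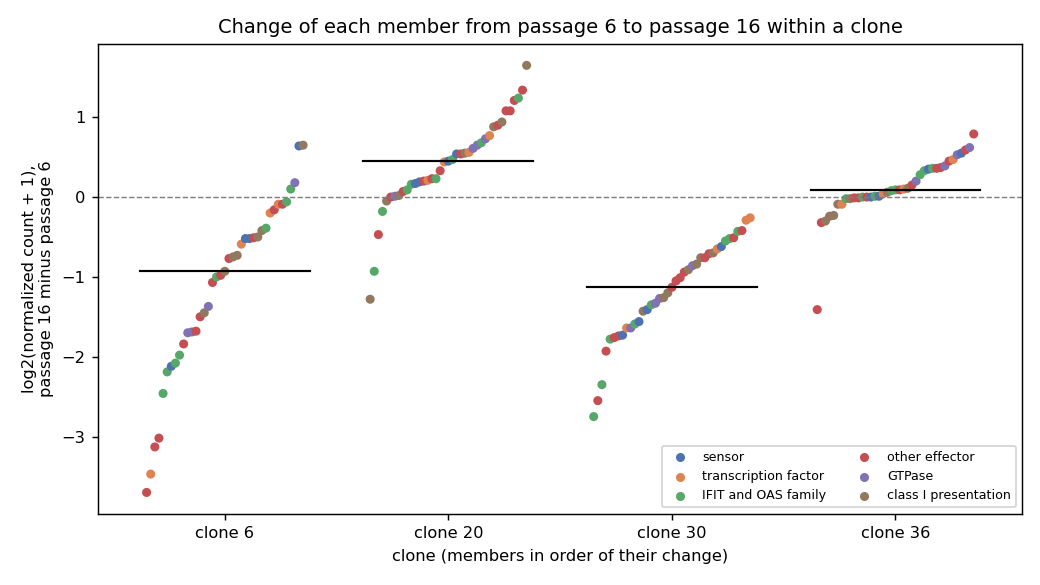
Change of each of the 39 members from passage 6 to passage 16 within a clone (vertical axis, difference of log2(normalized count + 1)), with the members of a clone in order of their change along the horizontal axis, coloured by role, and a black line at the median. All 39 points of clone 30 and 35 of clone 6 lie below 0, while 33 of clone 20 and 27 of clone 36 lie above it.

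The comparison of the passages across the 4 clones called none of the members. It was tested with limma on log2(normalized count + 1) over 14791 names, as a two-sided test with p-values adjusted by Benjamini-Hochberg, and 0.05 as the threshold. Of the 39 members, 0 passed, where 0.00676% of all names did (1 name). At an unadjusted p under 0.05 the count of members was also 0, where 3.5% of names passed. The list was chosen by differences between these same libraries, and such a choice can widen the spread within a passage. Member counts beside the shares of names are therefore no independent result about the passages. The lowest unadjusted p of a member was 0.218 for Tapbp, and the lowest adjusted p was 0.947. In no member did the 4 libraries of passage 6 and the 4 of passage 16 stand apart without overlap. The share of all names that do so was not counted, so that this is no result about the members in particular.

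The fitted log2 fold changes of passage 16 against passage 6 went from -1.76 ± 1.78 (SE, n = 4 per passage) for Ifi44 to 0.16 ± 0.557 for Herc6. They were below 0 for 36 members and above 0 for 3 (Irf1, Oasl1 and Herc6). Their median was -0.36, while the median over all names was -0.0037. The standard error, which rests on the differences between clones of the same passage, had a median of 0.831 over the members and of 0.14 over all names. Without the passage 6 library of clone 30, the median changed sign to 0.21 and 7 of the members were below 0.

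As an example of the spread, Stat2 had 1591 ± 1085 (SD, n = 4) normalized counts at passage 6 and 1353 ± 451 at passage 16. Bst2 had 4376 ± 4807 at passage 6 and 2469 ± 2241 at passage 16, with an adjusted p of 0.947 in limma. An exact two-sided permutation test over the libraries gave p of at least 0.343 for every member, and with 4 against 4 libraries it cannot go below 0.0286. When the clone was a block in the fit, 0 members passed in limma, edgeR or DESeq2, while 4 members (Ifit3, Ifitm3, Ifi44 and Tap1) had an unadjusted p under 0.05 in limma with an adjusted p of 0.726. In that fit 5.98% of all names (884 of 14791) had an unadjusted p under 0.05.

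Other genes of the pathway were taken from a list of 97 genes that are no members, of which 94 had a row and 80 were tested. None passed limma's threshold in either direction, and 1 (Pml) had an unadjusted p under 0.05, where 3.5% of all 14791 names did. Since 19 of the 97 are in groups of names whose rows can be displaced, the levels below concern the 64 tested genes outside them. Clone 30 was the highest clone at both passages for 31 of the 64, and 27 had extremes over 4-fold apart.

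The interferon genes themselves were at the edge of detection. Ifnb1, the gene of interferon beta, had 14 reads in clone 30 and 4 reads in clone 36 at passage 6, and 2 and 1 reads in these clones at passage 16. In the 4 libraries of clones 6 and 20 it had 0 reads, which allows up to 3 reads in each. Ifna4, an interferon alpha gene, had 10 reads in clone 30 at passage 6, 1 read in clone 30 at passage 16 and none elsewhere. Both genes thus had most of their reads in the passage 6 library of clone 30, where the members were highest. The counts were too low for a comparison of levels. At passage 6 the members summed to 19783 in clone 6, without reads of either gene, and to 20527 in clone 36. Whether these interferon genes had a part in the levels of the members was not tested. Ifnk had at most 2 reads in a library. Ifng, the gene of interferon gamma, was between 0 and 1.75 normalized counts, with its highest value in clone 6 at passage 16.

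Of the 8 receptor and JAK kinase genes described here, 0 had clone 30 as the highest clone at both passages. Ifnar1 and Ifnar2, the chains of the receptor for interferons alpha and beta, were between 1798 and 2032 and between 308 and 382 in the 8 libraries. Their extremes were 1.13-fold and 1.24-fold apart. Il10rb and Ifngr1, the receptor genes with the widest distance, reached 2.29-fold and 1.85-fold, and Ifngr2 followed with 1.63-fold. Clone 30 was not the highest clone for any of the 3 at either passage.

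The next genes were grouped around the induction of interferon, on which they can act in either direction. Tlr3, an endosomal receptor for double-stranded RNA, was at 48.1, 31.5, 178 and 65.1 at passage 6 and at 48.2, 55.5, 79.3 and 54.3 at passage 16. Adar, which edits adenosine in double-stranded RNA, was at 2436, 2196, 6191 and 2599 and then at 1776, 1959, 4311 and 2653. Clone 30 was the highest in both genes at both passages. Irf3, the factor that sensors switch on without new synthesis, was between 774 and 947 in all libraries, 1.22-fold between the extremes. Mavs and Tbk1, which pass the signal on to Irf3, had extremes 1.12-fold and 1.15-fold apart.

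Among the negative regulators, Socs1, an inhibitor of JAK kinases that interferon induces, was at 86.9, 88.3, 310 and 99.5 at passage 6 and at 89.5, 74.6, 172 and 128 at passage 16. Socs3, which LIF induces, was between 1450 and 2454, and its highest library was clone 6 at passage 16. Usp18, Ptpn2 and Ddx58 are in groups of names whose rows can be displaced, and their levels were not read.

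Further interferon-stimulated genes had distances between libraries as wide as the members. Mx2, a gene of the dynamin-like antiviral family that GENCODE lists as a polymorphic pseudogene, was at 20, 0.901, 1624 and 73.4 normalized counts at passage 6 and at 4.39, 4.78, 310 and 85.1 at passage 16. Epsti1 was at 20, 0.901, 357 and 28.4 and then at 0, 0, 113 and 44.1. Tgtp1, a GTPase, was at 24.1, 4.5, 209 and 39.1 and then at 0, 4.78, 99.6 and 43.0. Of the 30 tested genes of this kind, 23 had clone 30 as the highest clone at both passages, and their median distance between the extremes was 3.53 on the log2 scale, beside 3.87 for the members. Some genes of the same list did not follow: Ifitm2, a neighbour of Ifitm3, was between 4240 and 5115 in all libraries.

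Pml, the gene of the nuclear body protein, was the gene of the list with the lowest p. It was at 6085, 6227, 6394 and 6215 at passage 6 and at 5779, 5479, 5663 and 5369 at passage 16. The passages did not overlap, and the level was lower at passage 16 in 4 of 4 clones. The share of all names without such overlap was not counted, and Pml was named for its low p. The log2 fold change was -0.16 ± 0.0398 with an unadjusted p of 0.00373 and an adjusted p of 0.947 in limma. In DESeq2 on the recovered reads the adjusted p was 0.0249, in a fit that called 0.26% of names (44 of 16928 with an adjusted p). It was 0.0487 with the clone as a block, in a fit that called 0.714% of names (98 of 13725). Pml had the lowest distance between libraries of the 30 genes, and clone 6 was its highest clone at passage 16.

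The class I heavy chains H2-K1 and H2-D1 were at their highest in the passage 6 library of clone 30, with 2544 and 2700 normalized counts. H2-D1 was at 1133, 559, 2700 and 1047 at passage 6 and at 443, 622, 1480 and 1044 at passage 16. H2-K1 was at 1506, 769, 2544 and 1169 and then at 701, 1142, 1256 and 1287, where clone 36 was the highest. H2-Q4 and H2-T22, nonclassical class I genes, reached 577 and 36.9 in clone 30 at passage 6, with lowest libraries of 118 and 2.70. The median distance over the 14 tested genes of this kind was 1.15 on the log2 scale.

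**Figure D4:**
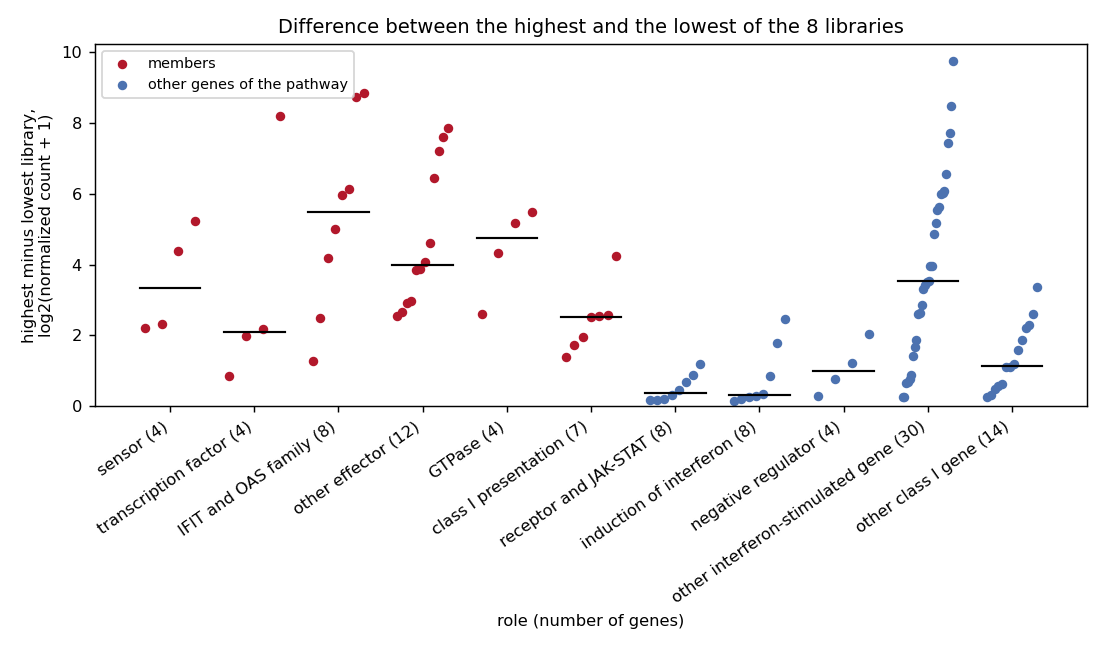
Difference between the highest and the lowest of the 8 libraries for each gene (vertical axis, log2(normalized count + 1)) by role (horizontal axis, number of genes in brackets), in red for the members and in blue for the other tested genes of the pathway outside the groups of names with rows that can be displaced; black lines are medians. The median is 3.53 for the other interferon-stimulated genes. It is 0.38 for the role labelled receptor and JAK-STAT, which holds receptor and JAK kinase genes and no STAT gene, and the highest there is 1.18.

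Markers of ES cells and of other cell types were set beside these levels. The markers of the labelled cell type were high, with Pou5f1 between 23589 and 29184 normalized counts and Nanog between 6636 and 9071 in all libraries, and the sum over the 9 ES cell markers outside the groups of names with rows that can be displaced was between 106568 and 114319. The 9 fibroblast markers, which cells of a feeder layer would carry, summed to between 3891 and 5940 and were at 4254 and 5940 in clone 30 at passages 6 and 16. The 7 leukocyte markers outside the groups of names with rows that can be displaced summed to between 191 and 290. Of these, Itgam was between 108 and 261, Csf1r between 11.4 and 88.2 and Cd14 between 9.35 and 19.8. Ptprc, Tyrobp, Lyz2 and Emr1 were at most 5.74 in any library. All 5 primitive endoderm markers (Gata6, Gata4, Foxa2, Dab2 and Sox7) were lowest in clone 30 at passage 16, with a sum of 1409, and at passage 6 clone 30 was again the lowest with 1950, while the other 6 libraries had between 2165 and 6370. The part of endoderm-like cells in the levels of the members was not tested.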

How the data were processed

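Reads were aligned by the authors to GRCm38 (mm10) with TopHat2 2.0.10 and Bowtie 1.0.0, counted per gene of the UCSC annotation with HTSeq 0.5.3p9 and compared with DESeq2, per the labels and the methods. The deposited signal per gene is the authors' read count divided by the size factor of its library, and 1 table of 23337 names holds all 8 libraries. Multiplying by the factor gave whole reads for 100% of values (within 0.01 of a read), so that depth was 21394069 to 34295561 reads. The factors equalled those that DESeq2 computes.

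Libraries were grouped by the passage and clone in their labels. The members, the lists of pathway and marker genes, and the tests were chosen with earlier results of these data known. Passage 16 was compared with passage 6 by limma 3.58.1 (R 4.3.3, lmFit and eBayes, trend on), with 1 added to each value before taking log2. Names entered when their mean normalized count reached 10, which held for 14791, and p-values were adjusted over all of them. A fold change on this scale understates that of low genes. edgeR 4.0.16 and DESeq2 1.42.0 on recovered reads were alternatives, and each fit was tested on simulated data. Clone differences were described without a test. Levels in every library are given, per role, for up to 4 members with the highest mean and up to 2 with the largest distance between libraries, and for pathway genes set by name or by the 3 largest distances per role. Members named for an extreme fold change or p, and Mavs, Tbk1 and Ifitm2, were chosen after their values were seen. Of the pathway genes the rule set by name, 1 is not reported here. Positions and exons are GENCODE M21 (GRCm38), and promoters are RefSeq GRCm38.p6.

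The clone number in the labels pairs the passages. Deviations from the passage means over 12283 names correlated within a clone with r = 0.096 (clone 6), 0.27 (clone 20), 0.70 (clone 30) and 0.43 (clone 36). For clone 6 the correlation with clone 36 at the other passage was higher (0.28 between clone 6 at passage 6 and clone 36 at passage 16). In the other direction it was not (-0.0095 between clone 36 at passage 6 and clone 6 at passage 16).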

Additional observations from a re-analysis of the deposited data

How the results depend on the processing

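Over 26 alternatives (pseudocounts of 0.5 and 10, other filters, TMM and quantile scaling, other priors, edgeR, DESeq2, the replicate block, names whose rows can be displaced left out, and fits without each library or clone), 0 of the members that had a p-value passed the threshold in each. These were 39 members except for 31 with a mean of at least 100, 30 in DESeq2 and 38 without clone 30. DESeq2 without the replicate block gave no p-value for the other members. Irf7, Ifit1, Ifit3, Oasl2 and Isg15, which had wide distances between libraries, were among these. With the replicate block, which pairs the passages by clone, the lowest adjusted p of a member was 0.726 in limma, 0.763 in edgeR and 0.207 in DESeq2 (Ifitm3), and the median log2 fold change of the members was -0.36, -0.38 and -0.36. DESeq2 called 1 gene of the pathway list (Pml), with and without the replicate block, out of 98 and 44 names called in all, and the count was 0 in the other 24 alternatives. The median log2 fold change of the members went from -0.86 (without the passage 6 library of clone 20) to 0.21 (without that of clone 30), and was -0.10 and -0.15 without the passage 16 libraries of clones 6 and 20. It was -0.62 in edgeR, and 7 of 39 members were lower without the passage 6 library of clone 30. The log2 fold change of Herc6 was -0.16 in edgeR and -0.16 in DESeq2, and between -0.36 and 0.62 with a library or clone left out. The distance between the highest and lowest library in the mean of the members was between 1.79 (without clone 30) and 3.95 with a library or clone left out. The cause of these differences was not tested. Depth limits the lowest levels, since 0 reads allow up to 3 reads per library.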
